A study of Homo sapiens with 6 samples.

Results

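Among the mature miRNAs counted in exosomes of MDA-MB-231 cells, a group of annotations carries a high serial number, 1000 or more after the prefix hsa-miR. The rule that found them reads names, not counts, although it was drawn up with earlier results of these data known: every row of the 6 count tables with such a number, leaving out miR-1246, miR-7704, miR-3648, miR-7641, miR-4488, miR-4461, miR-4485 and miR-1973. That gave 128 of the 503 listed miRNAs. MDA-MB-231 is a human cell line from a breast carcinoma without hormone receptors, with mesenchymal features. The libraries came from exosomes of stable clones that carried a hairpin against MCU (shMCU, 3 libraries), the gene for the pore of the mitochondrial calcium uniporter, or a control hairpin (shNC, 3 libraries). Both groups share the stable hairpin vector, a culture medium whose serum was freed of exosomes, and enrichment of exosomes with polyethylene glycol and ultracentrifugation. The labels do not say how many clones stand behind each group or whether replicates were separate cultures. A p-value here thus reflects variation among the 6 libraries, part or all of which could be technical.

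Serial numbers of miRNAs follow the order in which they were registered, so the low numbers hold the old, well-conserved families, and most high numbers were assigned once deep sequencing made rare small RNAs visible. A canonical miRNA is cut from a hairpin by Drosha and Dicer, and bases 2 to 8 of the mature strand, its seed, choose the target transcripts. Some hairpins skip Drosha because they are whole spliced introns, called mirtrons, and some annotations overlap other structured RNAs such as small nucleolar RNAs. Conservation was not measured here. Of 17 miRNA names taken from background knowledge as conserved in other mammals, 7 members matched, and these 7 held 202 of the 879 counts of the high-numbered group.

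The mature sequences of the best-counted members with an entry in the RefSeq tables (GRCh38.p14) are shown with the seed in capitals, 5′ to 3′, because seed and base composition are what these miRNAs are compared on. Of the 128 members, 108 had an entry; miR-6087, miR-4326, miR-6723-5p, miR-1296-5p, miR-4508, miR-3687 and miR-3607-3p are among the 20 named only.
miR-1307-3p: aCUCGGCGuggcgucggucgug
miR-1307-5p: uCGACCGGaccucgaccggcu
miR-1180-3p: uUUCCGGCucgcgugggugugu
miR-3615: uCUCUCGGcuccucgcggcuc
miR-1291: uGGCCCUGacugaagaccagcagu
miR-4449: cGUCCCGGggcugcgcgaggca
miR-3681-5p: uAGUGGAUgaugcacucugugc
miR-1287-5p: uGCUGGAUcagugguucgaguc
miR-3934-5p: uCAGGUGUggaaacugaggcag
Each of these 9 has a seed that no other listed miRNA with a sequence shares.

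Totals ran from 12859 to 14692 counts in shMCU and from 11563 to 47863 counts in shNC libraries, so 1 count was worth between 20.9 and 86.5 CPM, that is listed counts scaled to a total of 1e+06. On the first principal component of the miRNAs that passed the filter on low counts, shMCU replicate 3 scored 6.22 and lay far from the rest, which scored between -2.62 and 2.02. The 8 markers listed for MDA-MB-231, such as miR-21-5p and miR-100-5p, held 26.5% to 37.5% of counts in shMCU and 33.4% to 37.7% in shNC libraries. Epithelial markers held at most 0.124% in shMCU and 0.208% in shNC, with miR-141-3p, 1 of the 6, not listed. Blood cell markers, without the unlisted miR-144-3p, held at most 0.108% in shMCU and 0.0865% in shNC, muscle markers, without the unlisted miR-1-3p, at most 0.0155% in shMCU and 0.0605% in shNC, and neural markers at most 0.327% in shMCU and 0.359% in shNC. Liver markers, which include the hepatocyte miRNA miR-122-5p, held 2.498% to 10.6% of counts in shMCU and 1.38% to 2.52% in shNC libraries. Their part in the results on the high-numbered miRNAs was not tested, apart from shares taken without miR-122-5p. The MCU transcript is not measured in small RNA libraries.

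The high-numbered miRNAs made up 25.4% of the listed names but only 0.734% of the 119791 counts. Most were seen once. Of the 128, 68 (53.1%) had exactly 1 count over all 6 libraries, 18 had 2, 24 had 3 to 9 and 18 had 10 or more. Of the 367 miRNAs with a lower number or a let-7 name, 76 (20.7%) had exactly 1 count and 172 (46.9%) had 10 or more. Every member and every lower-numbered miRNA had at least 1 count in some library, so an unread miRNA does not appear among them. Only 8 members (6.25%) were counted in all 6 libraries, against 138 (37.6%) of the lower-numbered, and 78 members (60.9%) were counted in a single library, against 94 (25.6%). These shares describe the lists and were given no test.

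**Figure D1:**
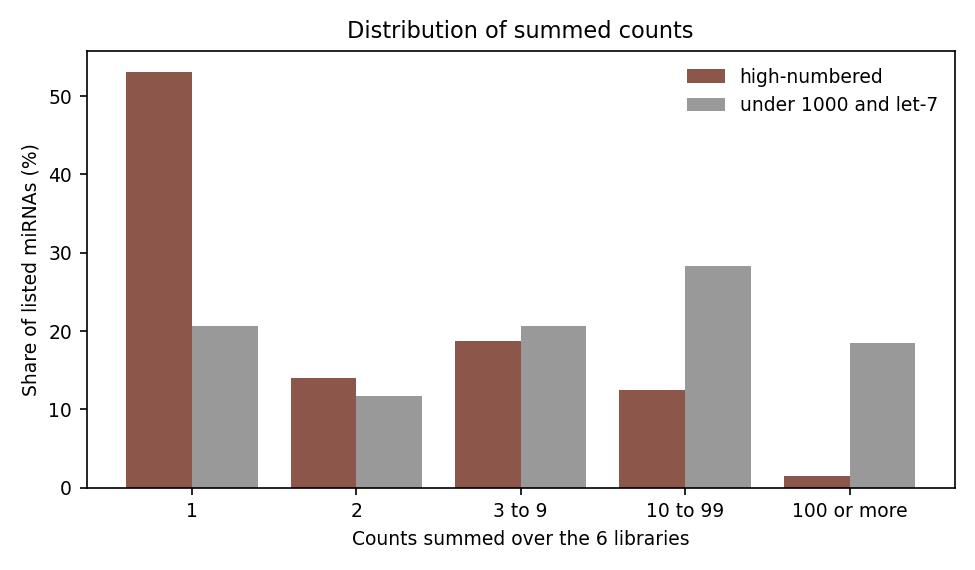
Distribution of summed counts: the x axis gives counts summed over the 6 libraries in 5 classes, and the y axis the share of listed miRNAs in each class in percent, for the 128 high-numbered miRNAs and the 367 miRNAs numbered under 1000 or named let-7. The class of 1 count holds 53.1% of the high-numbered and 20.7% of the lower-numbered miRNAs.

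Within the group, 2 miRNAs dominated. miR-6087 had 265 counts (30.1% of all high-numbered counts) and miR-1307-3p 133, together 45.3%. The 10 best-counted members held 64.6% and the 18 with at least 10 counts 74.4%, which left 225 counts to the other 110. By mean CPM over the libraries, miR-6087 ranked 40 and miR-1307-3p 69 of the 503 listed miRNAs, while miR-4326 and miR-1180-3p, next in the group, ranked 120 and 121. By serial number, 39 members lay in the 1000s with 318 counts, 31 in the 3000s with 114, 27 in the 4000s with 107, and 21 in the 6000s with 307, of which 265 were miR-6087. In that last block 17 of 21 members had exactly 1 count.

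The summed share of the high-numbered miRNAs differed between shMCU and shNC exosomes by less than the spread between libraries, and its sign depended on the scaling. It was 0.634%, 0.681% and 0.848% in shMCU replicates 1, 2 and 3, and 0.620%, 1.01% and 0.875% in shNC replicates 1, 2 and 3. The lowest and the highest library were both shNC, with the shMCU values between them. The means were 0.721% ± 0.112 in shMCU and 0.836% ± 0.199 in shNC libraries (SD, n = 3 each), a difference of -0.115 percentage points (shMCU minus shNC), smaller than the pooled SD of 0.161. TMM is edgeR's normalization, here with factors from the 79 miRNAs that passed the filter on low counts. Scaled by TMM, the sum was 0.602%, 0.737% and 1.04% in shMCU and 0.553%, 0.928% and 0.852% in shNC replicates 1, 2 and 3. The highest library was then shMCU replicate 3, and the means were 0.792% ± 0.223 in shMCU and 0.778% ± 0.198 in shNC libraries, a difference of 0.014 points. TMM factors over all listed miRNAs differed, 0.935 in place of 1.12 for shNC replicate 1 and 1.26 in place of 1.09 for shNC replicate 2. The sum was not scaled by those, so the turned sign and the order of libraries hold only for factors from the filtered miRNAs. In bulk exosome RNA, fewer vesicles of a kind and less of an RNA per vesicle cannot be told apart. Since the members were chosen with results of these data known, no p is given for their sum. Pooled over libraries, 291 of 40481 counts in shMCU and 588 of 79310 in shNC gave a ratio of 0.970 (exact 95% interval 0.840 to 1.12, for counting error alone). The difference was -0.223 points without shNC replicate 1, -0.0270 without shNC replicate 2, -0.0717 without shMCU replicate 1 and -0.178 without shMCU replicate 3. Without miR-6087 the means were 0.494% ± 0.102 in shMCU and 0.534% ± 0.0782 in shNC libraries. The 8 annotations left out by the rule held 1.95% ± 0.202 in shMCU and 1.87% ± 0.622 in shNC libraries, more than the 128 members together in every library.

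**Figure D2:**
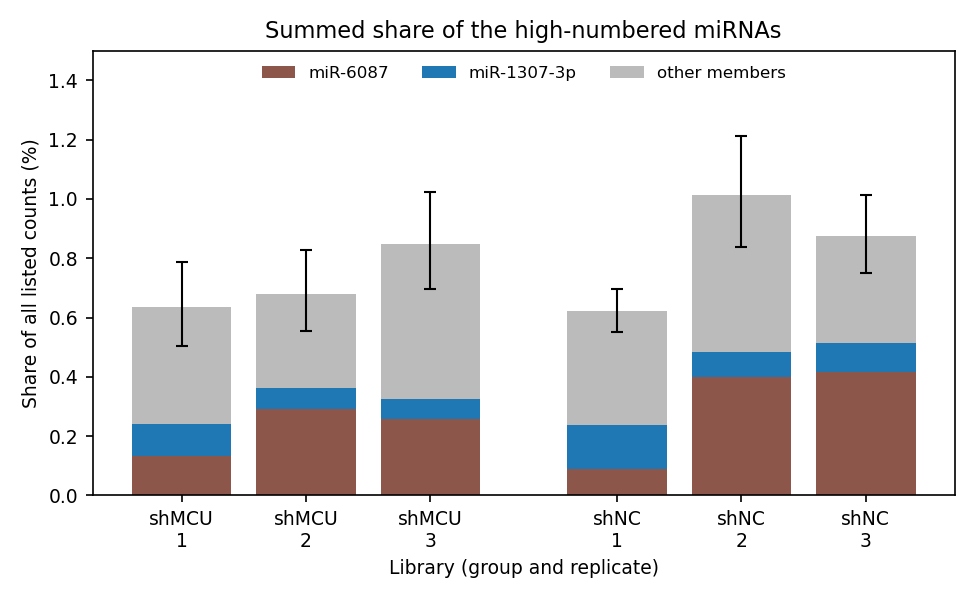
Summed share of the high-numbered miRNAs: each bar is 1 library (x axis), its height the share of all listed counts in percent (y axis), split into miR-6087, miR-1307-3p and the other 126 members; error bars are exact 95% binomial intervals of the sum, for counting error only. The shMCU bars, 0.634% to 0.848%, lie within the range of the shNC bars, 0.620% to 1.01%. Scaled by TMM factors from the miRNAs that passed the filter, this does not hold, as shMCU replicate 3 is highest (1.04%).

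Members numbered under 2000 were the part of the group whose summed share did not overlap between shMCU and shNC when scaled to the library total. They held 0.209%, 0.225% and 0.210% of counts in shMCU replicates 1, 2 and 3 and 0.311%, 0.294% and 0.241% in shNC replicates 1, 2 and 3, all shMCU values lying below all shNC values. Scaled by TMM, the same shares were 0.198%, 0.243% and 0.257% in shMCU and 0.278%, 0.270% and 0.235% in shNC, and the groups overlapped. This block was singled out after its values were seen and has no test. Of its 318 counts, 133 were miR-1307-3p. Shares of the block without miR-1307-3p were not computed, so the lack of overlap is not shown for its other members. Members numbered 2000 or more held 0.425%, 0.456% and 0.638% in shMCU and 0.309%, 0.718% and 0.634% in shNC replicates 1, 2 and 3, overlapping on either scale.

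The number of high-numbered miRNAs counted was highest in the deepest libraries. At least 1 count was found for 37, 31 and 39 members in shMCU replicates 1, 2 and 3, and for 74, 36 and 46 in shNC replicates 1, 2 and 3. The highest number came from shNC replicate 1, the deepest library, and the lowest from shMCU replicate 2, the third deepest; shNC replicate 3 also lay above all shMCU libraries, and shNC replicate 2 lay among them. The mean was 35.7 ± 4.16 in shMCU and 52.0 ± 19.7 in shNC libraries (SD, n = 3 each), a difference of -16.3, or -5.33 without shNC replicate 1. Taken down to the 11563 counts of the shallowest library, the libraries would be expected to show 34.6, 26.7 and 36.6 members in shMCU and 31.6, 36.0 and 32.4 in shNC. Their means, 32.7 ± 5.23 in shMCU and 33.3 ± 2.34 in shNC, differed by less than either SD. In each library a member seen at all was usually seen once: singletons made up 56.8% to 61.3% of counted members in shMCU and 55.4% to 60.9% in shNC libraries, against 27.1% to 33.0% and 22.7% to 28.6% among the lower-numbered miRNAs.

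**Figure D3:**
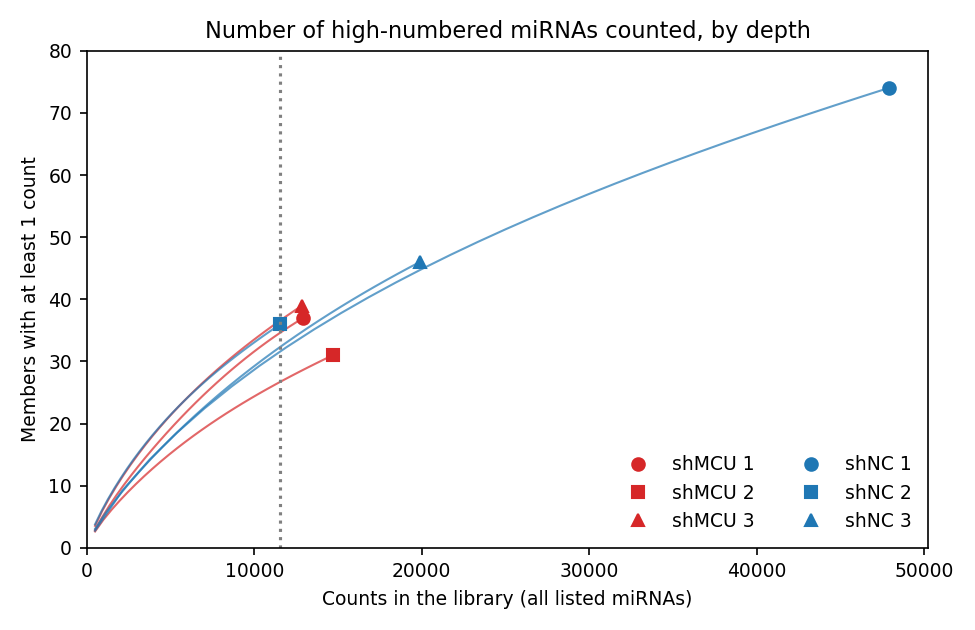
Number of high-numbered miRNAs counted, by depth: the x axis is the total count of a library, the y axis the number of members with at least 1 count; points are the 6 libraries, and each line is the number expected from that library at smaller depths. At the dotted line, the 11563 counts of the shallowest library, the lines of shMCU (26.7 to 36.6) and shNC (31.6 to 36.0) overlap.

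Across the whole table, edgeR's quasi-likelihood test of shMCU against shNC called 0 of 79 tested miRNAs at an adjusted p of 0.05 (0.0%), with 3 (3.8%) at an unadjusted p under 0.05; DESeq2 called 1 (1.27%), miR-122-5p, which is no member, with 3 at an unadjusted p under 0.05. The filter on low counts passed 2 of the 128 members, miR-6087 and miR-1307-3p, and neither was called. A lower filter of 3 counts in 3 libraries passed 8 members among 156 miRNAs and called 0 (0.0%), with 9 (5.77%) at an unadjusted p under 0.05. Without any filter 1 of 503 miRNAs was called (0.199%) and 10 (1.99%) had an unadjusted p under 0.05, none of them a member; the smallest member p was 0.080, adjusted 0.68 (edgeR's quasi-likelihood test). In the 126 members under the filter a difference between the groups was mostly not detectable at this depth: a count of 0 allows a level of up to 62.7 CPM in shNC replicate 1 and 259 CPM in shNC replicate 2.

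miR-6087, annotated on the plus strand of chromosome X from 109054542 to 109054590 (GRCh38) with no host gene on that strand, was the best-counted member. It belongs to the annotations whose sequence has been ascribed to ribosomal RNA; whether its reads came from ribosomal RNA was not tested. It had 17, 43 and 33 counts (1315, 2927 and 2566 CPM) in shMCU and 43, 46 and 83 counts (898, 3978 and 4174 CPM) in shNC replicates 1, 2 and 3. The lowest and the highest values were both shNC, and the groups overlapped. Its fitted fold was 0.905 (95% interval 0.313 to 2.62; log2 fold change -0.14 ± 0.65 SE, adjusted p = 0.93 by edgeR's quasi-likelihood test). Pooled over libraries, where shNC replicate 1 weighs most, the ratio was 1.06 (0.814 to 1.37, for counting error alone). The sign of the fitted value turned without shNC replicate 2 (0.05), shNC replicate 3 (0.19) or shMCU replicate 1 (0.19). Its dispersion index was 19.4, the highest of the members, where counting error alone gives about 1. The index is the variance of counts around an equal share in all 6 libraries relative to counting error. For the same relative spread it grows with the count, so it does not rank miR-6087 against members with few counts. The left-out miR-7704, also ascribed to ribosomal RNA, had 3867, 7011 and 9876 CPM in shMCU and 2110, 12972 and 6991 CPM in shNC replicates 1, 2 and 3, lowest in the same library, shNC replicate 1. The other listed member ascribed to ribosomal RNA, miR-3687, with hairpins at 2 places on chromosome 21, had 0, 0 and 6 counts in shMCU and 1, 3 and 1 in shNC; 6 of its 11 counts lay in shMCU replicate 3, the library that stood apart. Together miR-6087 and miR-3687, without the left-out miR-7704, held 0.242% ± 0.0963 in shMCU and 0.313% ± 0.191 in shNC libraries.

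miR-1307-3p is on the list of names taken as conserved in other mammals. It lies on the minus strand of chromosome 10 (MIR1307, 103394253 to 103394401 on GRCh38) in an untranslated exon of ATP5MD, a small subunit of the mitochondrial ATP synthase. It had 14, 10 and 9 counts (1083, 681 and 700 CPM) in shMCU and 71, 10 and 19 counts (1483, 865 and 956 CPM) in shNC replicates 1, 2 and 3. By CPM, shMCU replicates 2 and 3 lay below every shNC library, while shMCU replicate 1 lay within the shNC range. Divided by the TMM factors (0.818 for shMCU replicate 3, 1.09 for shNC replicate 2), shMCU replicate 3 comes to lie above shNC replicate 2. Means were 821 ± 227 CPM in shMCU and 1101 ± 334 CPM in shNC libraries (SD, n = 3 each). The fitted fold was 0.835 (95% interval 0.451 to 1.55; log2 fold change -0.26 ± 0.40 SE, adjusted p = 0.86 by edgeR's quasi-likelihood test). Without shNC replicate 1, which held 71 of its 133 counts, the log2 fold change was 0.003. Pooled over libraries the ratio was 0.647 with a counting interval from 0.422 to 0.967, which takes no account of the spread between libraries. From the opposite arm of the same hairpin, miR-1307-5p had 2, 1 and 1 counts in shMCU and 5, 0 and 2 in shNC, 11 against the 133 of the 3p arm.

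Among the other members on the list of conserved names was miR-1180-3p, from an intron of B9D1, a gene of the ciliary transition zone (MIR1180, chromosome 17, 19344506 to 19344574, minus strand). It had 2, 4 and 3 counts in shMCU and 15, 4 and 4 in shNC replicates 1, 2 and 3. As CPM these were 155, 272 and 233 in shMCU and 313, 346 and 201 in shNC, overlapping, with a dispersion index of 0.329. miR-1296-5p, from an intron of JMJD1C, a gene of the jumonji demethylase family (MIR1296, chromosome 10, 63372957 to 63373048, minus strand), had 1, 1 and 0 counts in shMCU and 10, 3 and 2 in shNC. Its CPM were 77.3, 68.1 and 0 in shMCU and 209, 259 and 100.6 in shNC, all shMCU values below all shNC values, on the TMM scale too. The pooled ratio was 0.261 with a counting interval from 0.0290 to 1.12, and without a filter the log2 fold change was -1.79 ± 1.06 (SE), adjusted p = 0.68 by edgeR's quasi-likelihood test. The only other member with at least 10 counts whose CPM did not overlap was miR-3934-5p, with 1, 1 and 1 counts in shMCU and 5, 1 and 2 in shNC; scaled by TMM its groups overlapped. Those 2 of 18 members (11.1%), both lower in shMCU, compare with 14.2% of the 197 listed miRNAs with as many counts, of which 11.7% were lower and 2.54% higher in every shMCU library. Among the 79 tested miRNAs 10.1% were lower and 1.27% higher, and among 67 lower-numbered miRNAs with 10 to 40 counts 16.4% were lower and 4.48% higher. All these shares are by CPM on library totals, where the median log2 fold change of the tested miRNAs was -0.24. No such share was taken on the TMM scale, so the TMM values of miR-1296-5p have no background beside them. In all, the 7 members on the list of conserved names held 0.124% ± 0.0277 in shMCU and 0.173% ± 0.0429 in shNC libraries, and 1 of them was tested and 0 called.

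Members that lie on other RNAs came next. MIR1291 lies on the minus strand of chromosome 12 in an intron of KANSL2, a subunit gene of a histone acetyltransferase complex, and GENCODE places the small nucleolar RNA SNORA2C over it. The hairpin, read from RefSeq at chr12:48654444-48654530 of GRCh38.p14 on the minus strand, is shown with the mature miRNA in capitals to show that the mature strand sits near its 5′ end.
MIR1291 hairpin: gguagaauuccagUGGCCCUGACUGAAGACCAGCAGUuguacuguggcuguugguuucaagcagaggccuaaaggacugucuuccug
miR-1291 had 1, 3 and 4 counts in shMCU and 7, 3 and 3 in shNC replicates 1, 2 and 3. At the lower filter its fitted fold was 1.38 (95% interval 0.515 to 3.67, adjusted p = 0.93 by edgeR's quasi-likelihood test). Of 138 hairpins of the group, 3 overlapped a small nucleolar or Cajal body RNA on the same strand, MIR1291, MIR1248 with SNORA81 and MIR6516 with SCARNA16; of 316 hairpins of the lower-numbered miRNAs 0 did. Their miRNAs held 26 counts. The members ascribed to small nucleolar RNA, miR-1291, miR-1248 and miR-3607-3p, held 0.0301% ± 0.0144 in shMCU and 0.0409% ± 0.0329 in shNC libraries, and 0 of them passed the filter.

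miR-6723-5p is annotated on the minus strand of chromosome 1 (MIR6723, 632325 to 632413 on GRCh38), opposite MTCO1P12, a nuclear pseudogene copy of the mitochondrial gene for cytochrome c oxidase subunit 1. On its own strand miR-6723-5p lies in an intron of AL669831.3, a transcribed processed pseudogene. It had 2, 4 and 2 counts (155, 272 and 156 CPM) in shMCU and 4, 1 and 5 counts (83.6, 86.5 and 251 CPM) in shNC replicates 1, 2 and 3, overlapping, with a fitted fold of 1.71 at the lower filter (0.607 to 4.83, adjusted p = 0.79 by edgeR's quasi-likelihood test). Whether reads of mitochondrial RNA were counted there was not tested.

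The rest of the named members had host genes of several kinds. miR-4326, from an intron of ARFGAP1, a regulator of the Golgi GTPase ARF1 (MIR4326, chromosome 20, 63286808 to 63286866, plus strand), had 3, 3 and 2 counts in shMCU and 15, 6 and 3 in shNC replicates 1, 2 and 3, a fold of 0.764 at the lower filter (0.321 to 1.82). miR-3615 (MIR3615, chromosome 17, 74748613 to 74748699, plus strand) had no gene on its strand that contains the whole hairpin. Its mature sequence lies in a transcript of SLC9A3R1, a scaffold protein of the plasma membrane. Whether that gene overlaps the hairpin in part was not checked. miR-3615 had 2, 0 and 7 counts in shMCU and 7, 0 and 5 in shNC, a fold of 1.76 (0.391 to 7.92). It was absent from replicate 2 of both groups. miR-4449, from an intron of the long non-coding RNA gene DANCR (chromosome 4, 52712682 to 52712747), had 3, 0 and 3 counts in shMCU and 3, 2 and 2 in shNC, a fold of 1.83 (0.475 to 7.05). For these 3 and miR-1180-3p, adjusted p at the lower filter ran from 0.86 to 0.95 (edgeR's quasi-likelihood test).

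The members with at least 10 counts that are left were miR-4508, miR-3681-5p, miR-1287-5p, miR-4746-5p, miR-3607-3p and miR-7706. miR-4508 had 1, 2 and 3 counts in shMCU and 6, 2 and 2 in shNC, and miR-3681-5p, from its own host MIR3681HG, 2, 2 and 3 in shMCU and 2, 3 and 0 in shNC. Counts of miR-1287-5p, whose hairpin lies in PYROXD2, were 1, 0 and 1 in shMCU and 2, 4 and 3 in shNC, and those of miR-4746-5p 0, 1 and 1 in shMCU and 7, 1 and 0 in shNC. miR-3607-3p had 1, 0 and 2 counts in shMCU and 0, 4 and 3 in shNC, and miR-7706 had 2, 0 and 1 in shMCU and 5, 1 and 1 in shNC. Every one of these 6 overlapped between the groups by CPM. Over the 16 members with 10 to 40 counts the median dispersion index was 1.01, against 1.12 for 67 lower-numbered miRNAs with as many counts, so that most of their spread over the 6 libraries was of the size of counting error.

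**Figure D4:**
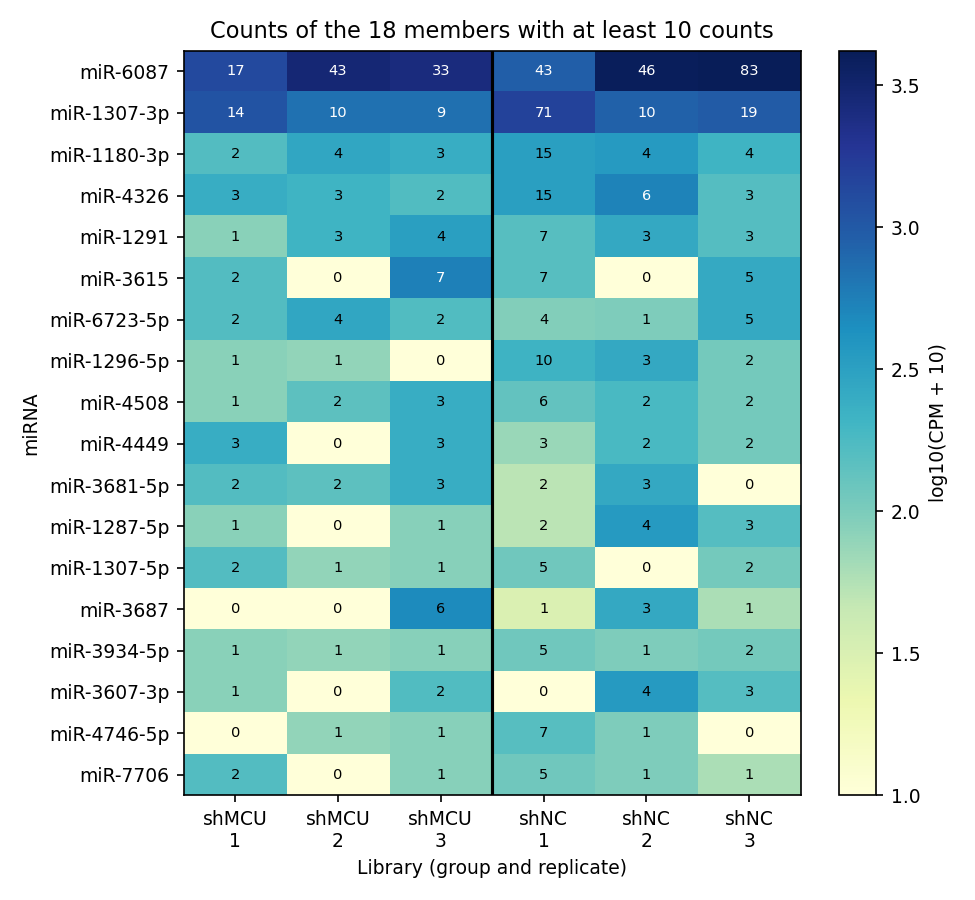
Counts of the 18 members with at least 10 counts: rows are miRNAs in order of their summed counts, columns the 6 libraries, the numbers are raw counts and the colour is log10(CPM + 10). Apart from miR-6087 and miR-1307-3p, single-digit counts fill nearly every cell. Low counts occur in both groups, such as 0, 1 and 1 in shMCU and 7, 1 and 0 in shNC for miR-4746-5p. For miR-3681-5p they are 2, 2 and 3 in shMCU and 2, 3 and 0 in shNC. The shNC libraries hold 79310 counts against 40481 in shMCU, so raw counts do not compare the groups.

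In base composition the high-numbered miRNAs with a sequence were shifted toward G and C against the lower-numbered, though the ranges overlapped. The 20 members without a sequence, among them miR-6087, held 44.9% of the member counts and are not in this comparison. The median share of G and C in the mature sequence was 59.1% over 108 members and 47.6% over 324 lower-numbered miRNAs with a sequence, and that of G alone 36.4% and 23.8%. At least 70% G and C was found in 24 members (22.2%) and in 8 lower-numbered miRNAs (2.47%). The difference was there among members with at least 10 counts (11 miRNAs, median 63.6%) and with fewer (97 miRNAs, median 59.1%), against 47.6% in both classes of the lower-numbered. Median length was 22 bases in both groups, but 82 members (75.9%) had 21 to 23 bases, against 306 lower-numbered miRNAs (94.4%), and lengths of members ran from 17 to 27 bases. These are descriptions of the annotation, with no test. The extremes of composition are shown, miR-1908-3p with 95.2% and miR-1252-5p with 22.7% G and C, each with 1 count.
miR-1908-3p: cCGGCCGCcggcuccgccccg
miR-1252-5p: aGAAGGAAauugaauucauuua

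**Figure D5:**
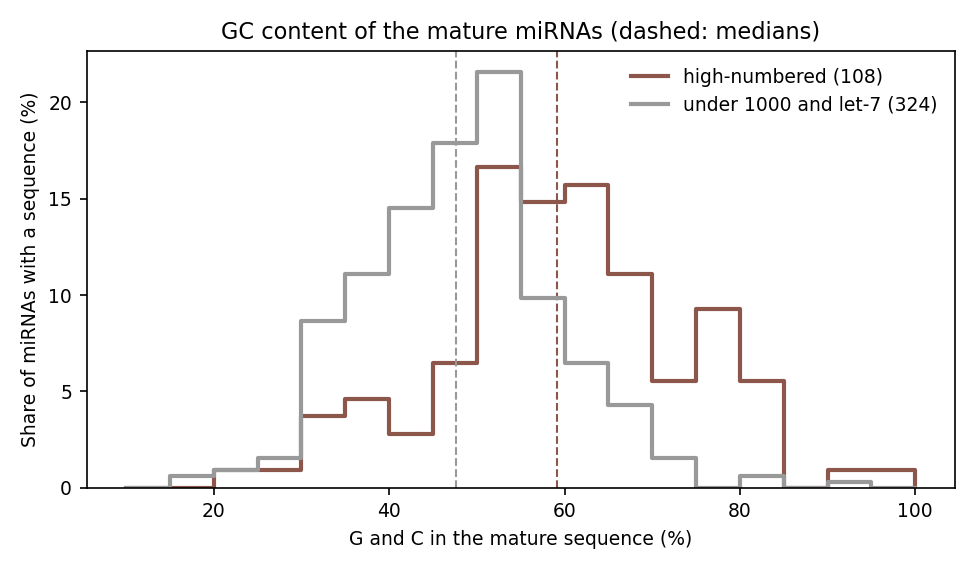
GC content of the mature miRNAs: the x axis is the share of G and C in percent in steps of 5, the y axis the share of miRNAs in each step, for 108 high-numbered and 324 lower-numbered miRNAs; dashed lines are the medians, 59.1% and 47.6%. The high-numbered curve extends further to the right, with 22.2% of miRNAs at 70% or more.

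Seeds were rarely shared. The 108 members with a sequence held 106 distinct seeds, and 6 seeds were shared between a member and another listed miRNA. Within the group, miR-1268a is wholly contained in miR-1268b, and miR-1269a and miR-1269b differ by G13A (positions counted from 1 at the 5′ end, miR-1269a first).
miR-1268a: cGGGCGUGgugguggggg
miR-1268b: cGGGCGUGguggugggggug
miR-1269a: cUGGACUGagccgugcuacugg
miR-1269b: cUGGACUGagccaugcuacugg
miR-1268a and miR-1268b had the same count in every library: 0, 3 and 0 in shMCU and 2, 1 and 1 in shNC replicates 1, 2 and 3. It was the only pair of members with at least 5 counts to do so, and whether the same reads were counted for both names is not given in the sources used here. Leaving one of them out changed the difference in summed share to -0.116 points. For miR-1269a and miR-1269b the counts were unlike, 0, 1 and 1 in shMCU and 1, 1 and 1 in shNC for the first, 0, 0 and 0 in shMCU and 2, 0 and 2 in shNC for the second. Members also carried seeds of lower-numbered miRNAs, and examples are shown here with a lower-numbered miRNA of the same seed. miR-4429 has the seed of the miR-320 family, miR-1271-5p that of miR-96-5p, and miR-1908-5p that of miR-663a.
miR-4429: aAAAGCUGggcugagaggcg
miR-320b: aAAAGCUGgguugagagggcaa
miR-1271-5p: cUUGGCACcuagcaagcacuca
miR-96-5p: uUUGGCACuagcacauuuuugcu
miR-1908-5p: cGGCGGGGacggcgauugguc
miR-663a: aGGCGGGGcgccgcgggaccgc
Against these, miR-4429 had 1 count and miR-320b 237, miR-1271-5p had 1 and miR-96-5p 12, and miR-1908-5p had 3 and miR-663a 7, so in each pair the lower-numbered miRNA was counted more. A further such pair, not shown, was miR-3118 with 1 count and miR-134-5p with 5.

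Of the 128 members, 127 matched 138 hairpin genes of GENCODE on 21 chromosomes. A host gene on the same strand was found for all but 40 hairpins (28.99%), against all but 68 of 316 (21.5%) for the lower-numbered, and the host coded for protein for 83 (60.1%) and 134 (42.4%). The hairpin lay only in introns of its host for 65 (47.1%) and 191 (60.4%), and overlapped an exon of at least 1 transcript for 33 (23.9%) and 57 (18.04%). Hairpins whose ends lay within 3 bases of both ends of an intron, the layout of a mirtron, numbered 5 in the group: MIR1224 in VWA5B2, MIR1225 in PKD1, MIR1226 in DHX30, MIR3620 in ARF1 and MIR7108 in LMNB2. The lower-numbered had 1, MIR877. The 6 miRNAs from those 5 hairpins had 1 count each. The 4 members on the list of mirtrons, among them miR-1224-5p and miR-1225-3p, were counted 0, 0 and 1 times in shMCU and 3, 0 and 0 times in shNC replicates 1, 2 and 3.

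The remaining lists were nearly empty. Repeat-derived annotations had 9 members with 34 counts, led by miR-1268a and miR-1268b, and held 0.0359% ± 0.0233 in shMCU and 0.0237% ± 0.00314 in shNC libraries. Of 8 names ascribed to transfer RNA, miR-4454 alone was listed, with 1 count in shMCU replicate 1. Of 10 names linked to cancer or exosomes in published work, miR-1307-3p, miR-1307-5p and miR-4454 were listed, at 0.0947% ± 0.0319 in shMCU and 0.117% ± 0.0375 in shNC libraries. Of these lists 1 member, miR-1307-3p, passed the filter and was tested, and it was not called; the repeat-derived and transfer RNA lists had 0 tested members. The lists were written with earlier results of these data known.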

How the data were processed

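Small RNA was sequenced from exosomes of shMCU and shNC clones of MDA-MB-231, 3 libraries each, grouped by sample title. Each library has its own deposited table of raw counts for mature miRNAs, without normalization. Bowtie and the build hg19 are named, per the submitters' processing notes. Not given in the sources used here are the settings, the counter, the annotation release and how reads that match several miRNAs were treated. Such reads and PCR copies can inflate or share counts, and intervals cover counting error only.

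All 503 miRNAs entered edgeR 4.0.16 (R 4.3.3; TMM, robust quasi-likelihood fit, filterByExpr with a minimum count of 10, Benjamini-Hochberg adjustment over all tested miRNAs, threshold 0.05). The SE was taken as the absolute log2 fold change over the square root of the F statistic. Shares and CPM use the total of listed counts and are TMM-scaled only where stated. TMM factors and DESeq2 size factors for this scaling came from the 79 miRNAs that passed the filter. On simulated counts for shMCU against shNC with 79 miRNAs, the test recovered 34.3% of 2-fold and 84.8% of 4-fold changes. These rates are averages over all abundances with many miRNAs changed at once, so they do not give the power for single members. Alternatives included DESeq2 1.42.0, other scalings and filters, a replicate block and each library left out. Hairpins and hosts are from GENCODE release 29 (GRCh38), matched by name, not converted from hg19; sequences are RefSeq's (GRCh38.p14). The members and lists were chosen with earlier results of these data known. Named miRNAs are members that passed the filter, the 15 with the highest mean CPM, those counted in all libraries, up to 5 per direction with the smallest unfiltered p among those with at least 10 counts, and up to 2 per list; others named were chosen after their values were seen.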

Additional observations from a re-analysis of the deposited data

How the results depend on the processing

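The number of miRNAs called over the whole table, 0, stayed 0 under the lower filter, the replicate block, library totals alone, scaling by DESeq2 size factors and each library left out. It was 1 with DESeq2 (miR-122-5p) and 1 without a filter (miR-375, with 15 of its 17 counts in 1 library); for both the cause was not tested. No member was called under any alternative. The number at an unadjusted p under 0.05, 3, was 10 without a filter, 9 with the lower filter and 0 to 12 with a library left out. The log2 fold change of miR-6087 ran from -0.63 to 0.19 and that of miR-1307-3p from -0.47 to 0.003 with a library left out; with library totals alone they were -0.38 and -0.47, where the median of all tested miRNAs was -0.24 in place of -0.02. The difference in summed share, -0.115 points, ran from -0.223 to -0.0270 with a library left out and moved by less than the pooled SD under every alternative run; its sign turned to 0.0063 without the 5 best-counted members, 0.011 over members under 10 counts, 0.014 scaled by TMM and 0.015 scaled by DESeq2 size factors. The subset under 10 counts, both scalings of the sum and leaving out miR-1268b were chosen after seeing the data. The difference in members counted, -16.3, was -1.33 at 10 or more counts and -0.67 at equal depth, both moves larger than the pooled SD of 14.2, and -24.3 to -5.33 with a library left out. Replicate numbers did not pair the libraries: deviations of same-numbered libraries correlated at 0.167, -0.348 and 0.0868. With the replicate block the log2 fold changes were -0.01 for miR-6087 and -0.21 for miR-1307-3p, 0 miRNAs were called, and the mean paired difference in summed share was -0.115 ± 0.188 (SD of 3). Fitted values of members under the filter rest on few counts.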

Other observations

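Of the 128 high-numbered miRNAs, 29 were counted in shMCU libraries alone, 55 in shNC libraries alone and 44 in both; of the 367 lower-numbered, 33 were counted in shMCU alone, 78 in shNC alone and 256 in both. No member found in shMCU alone had more than 2 counts; in shNC alone the most was 6, for miR-1303, with 4, 1 and 1 counts in shNC replicates 1, 2 and 3. The shNC libraries held 79310 counts against 40481 in shMCU. At the summed shMCU depth, 68.5 members would be expected in shNC, where shMCU had 73, and 284.7 lower-numbered miRNAs, where shMCU had 289. The other members found in shNC alone with at least 3 counts were miR-1269b, miR-1304-5p and miR-1908-5p, all with 0 counts in shMCU. These miRNAs were chosen after their values were seen, and no test was made.

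Both arms were listed for 6 hairpins. The 3p arm had 133 and the 5p arm 11 counts for miR-1307, 4 and 2 for miR-1285, 1 and 3 for miR-1908, 2 and 1 for miR-4690, and 1 and 1 for miR-1225 and miR-3940. Of the members, 49 names end in 5p, 27 in 3p and 52 give no arm. Besides miR-3615, mature sequences of miR-1285-3p, miR-1304-5p, miR-3654 and miR-4788 lay in a transcript of a gene other than their own hairpin or host, together 5 of 108 members (4.63%), against 1 of 324 lower-numbered miRNAs (0.309%). For miR-3654 one such gene was EEF1G, a translation elongation factor subunit.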
